A study of Mus musculus with 12 samples.

Results

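The 34 genes described here are 19 glycolysis genes, which code for glucose and lactate transporters, the enzymes of glycolysis and their controls, and 15 hypoxia genes, which code for other proteins known to respond to low oxygen. They were picked by symbol from a list, by a rule that uses no measured value, though the list was drawn up with earlier results of these data known. All 34 are among the 55367 genes of the count table and all 34 passed the filter on low counts that left 17076 genes to test. The 12 poly(A) RNA sequencing libraries come from mouse organoids, 3-dimensional epithelial cultures grown from the taste papillae of the posterior tongue, and the study asked what Foxe1, a forkhead transcription factor, does in them. In the line from the circumvallate papilla (CVP), the 4 libraries labelled Foxe1 knock-out are duplicates of clones 2.9 and 2.10, and 2 libraries are duplicates of wild type. In the line from the foliate papilla (FoP), the 4 knock-out libraries are duplicates of clones 2.4 and 2.5, and 2 are wild type duplicates. The cultures carry no other allele or agent in the labels, and their cell type is given as various. The labels name no clone for wild type, so the knock-out cannot be told apart from the derivation of a clone, and each clone is 1 isolate. Nothing says that duplicates were separate cultures, so a p-value here reflects the spread between these samples only, which may be technical. The sources used here give neither oxygen, medium nor growth conditions, and neither glucose use nor lactate was measured.

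Glycolysis breaks glucose down to pyruvate in the cytosol and yields ATP without oxygen. Lactate dehydrogenase can turn the pyruvate into lactate, which leaves the cell through a transporter. When oxygen is plentiful, prolyl hydroxylases of the Egln family mark the alpha subunits of the hypoxia-inducible factors (HIFs), such as Hif1a, for breakdown; when oxygen is low these subunits persist, pair with Arnt and bind DNA at hypoxia response elements. Most enzymes of glycolysis and most of the hypoxia genes are known targets of HIF-1 in other cells, while Hif1a itself is known to be set mainly through the stability of its protein. Keratinocytes of the skin, which resemble those lining the tongue, are known to use glycolysis heavily.

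The libraries held 59.3 M to 73.6 M counts and 21421 to 22602 detected genes. Levels are given as CPM, counts scaled to library sizes adjusted by TMM, and folds as log2 fold changes of knock-out over wild type ± SE. A gene is called lower or higher where its adjusted p from edgeR's quasi-likelihood test, corrected by Benjamini-Hochberg over all 17076 genes, was under 0.05. The Foxe1 transcript did not separate the labels. It had 1527 and 1432 counts in clone 2.9 and 487 and 547 in clone 2.10, against 1049 and 1144 in wild type CVP, and it had 1471 and 1292 in clone 2.4 and 707 and 660 in clone 2.5, against 1124 and 989 in wild type FoP. The transcript of a disrupted gene can persist, so these counts do not check the knock-out, and knock-out is used here as the label. The epithelial markers Krt5, Krt14, Epcam and Cdh1 were abundant in every library. The immune marker Ptprc, the fibroblast marker Lum and the endothelial marker Erg had 0 counts in all 12. Other markers of these cells did have counts. Per library, the immune markers summed to 10.9 to 108 CPM, the fibroblast markers to 63.5 to 424 CPM and the endothelial markers to 1.69 to 3.64 CPM. Absence of these cells is thus not shown.

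Levels per kb were taken over the joined length of all annotated exons of a gene. That length can exceed the length of the transcript in use, so ranks between genes are approximate. Among the 34 genes the highest level per kb of exon was that of Aldoa, an aldolase that splits the 6-carbon sugar, with a mean of 615 CPM per kb over the 12 libraries. Pkm, the pyruvate kinase of the last step, followed with 417 CPM per kb, and Ldha, the lactate dehydrogenase subunit, with 389 CPM per kb. The hypoxia gene with the highest level per kb was the oxygen sensor Egln3, with 312 CPM per kb. The lowest was the nuclear ankyrin protein Ankrd37, with 3.78 CPM per kb and 234 to 550 counts per library, so that no value of the 34 genes rested on fewer than 234 counts.

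In CVP organoids, 11 of the 19 glycolysis genes were lower in knock-out than in wild type and 0 were higher. This is 57.9% of the genes, where 22.9% of all tested genes were lower and 23.5% were higher. The median log2 fold change was -0.48 over the 19 genes and 0.03 over all tested genes. Every knock-out library lay below both wild type libraries for 14 of the 19 genes (73.7%), which held for 30.0% of all tested genes. These are bulk libraries, in which fewer cells of a type and less RNA per cell cannot be told apart.

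Both transporters were lower. Slc2a1, the glucose transporter GLUT1, had 174 and 195 CPM in clone 2.9 and 134 and 156 CPM in clone 2.10, against 398 and 357 CPM in wild type CVP. Slc16a3, the transporter MCT4 that exports lactate, had 83.5 and 79.6 CPM in clone 2.9 and 61.3 and 73.3 CPM in clone 2.10, against 175 and 147 CPM in wild type CVP. In both genes all 4 knock-out libraries were below wild type, and clone 2.10 had the lowest pair. The log2 fold change was -1.20 ± 0.13, adjusted p = 2.71e-05, for Slc2a1, which is 2.29-fold lower, and -1.11 ± 0.20, adjusted p = 0.00133, for Slc16a3.

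Of the 8 genes that act between the entry of glucose and the splitting of the sugar, 6 were lower. Hk2, the inducible hexokinase that traps glucose in the cell, had 83.3 and 111 CPM in clone 2.9 and 67.8 and 81.3 CPM in clone 2.10, against 188 and 157 CPM in wild type CVP. Gpi1, which turns glucose phosphate into fructose phosphate, had 660.0 and 691 CPM in clone 2.9 and 506 and 616 CPM in clone 2.10, against 1281 and 1148 CPM in wild type CVP. Neither gene had a knock-out library near the wild type pair, and both were lowest in clone 2.10. Their log2 fold changes were -1.003 ± 0.16, adjusted p = 0.000592, for Hk2 and -0.97 ± 0.12, adjusted p = 6.69e-05, for Gpi1. The platelet-type phosphofructokinase Pfkp (-0.84 ± 0.20, adjusted p = 0.00627), Aldoa (-0.77 ± 0.15, adjusted p = 0.00164), its relative Aldoc (-0.48 ± 0.12, adjusted p = 0.00666) and the constitutive hexokinase Hk1 (-0.38 ± 0.06, adjusted p = 0.00022) were lower by less. The liver-type and muscle-type phosphofructokinases did not pass, with Pfkl at -0.20 ± 0.16, adjusted p = 0.326 and Pfkm at -0.07 ± 0.06, adjusted p = 0.369.

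Aldoa, the gene with the highest level per kb, had 1529 and 1589 CPM in clone 2.9 and 1156 and 1371 CPM in clone 2.10, against 2625 and 2194 CPM in wild type CVP. All knock-out libraries were again below wild type, with clone 2.10 lowest.

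Of the 6 genes from triose phosphate isomerase to pyruvate kinase, 2 were lower, Gapdh (-0.48 ± 0.13, adjusted p = 0.0109) and the ATP-yielding kinase Pgk1 (-0.60 ± 0.21, adjusted p = 0.0446). The others did not pass: Tpi1 was at -0.41 ± 0.18, adjusted p = 0.0825, Pgam1 at -0.33 ± 0.20, adjusted p = 0.202, Pkm at -0.15 ± 0.14, adjusted p = 0.412 and Eno1 at -0.07 ± 0.12, adjusted p = 0.645. Pkm had 2469 and 2166 CPM in clone 2.9 and 2038 and 1851 CPM in clone 2.10, against 2414 and 2326 CPM in wild type CVP. Clone 2.9 spanned the wild type level of Pkm and clone 2.10 lay under it.

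Of the 3 branch and control enzymes 1 was lower. Pfkfb3, which makes the sugar bisphosphate that activates phosphofructokinase, had 28.6 and 37.6 CPM in clone 2.9 and 19.8 and 26.9 CPM in clone 2.10, against 72.0 and 52.1 CPM in wild type CVP. Its log2 fold change was -1.14 ± 0.23, adjusted p = 0.0029, with no overlap of the groups. Ldha had 1459 and 1292 CPM in clone 2.9 and 1108 and 1080.4 CPM in clone 2.10, against 1415 and 1389 CPM in wild type CVP. The groups overlapped for Ldha (-0.18 ± 0.17, adjusted p = 0.417), as clone 2.9 had 1 library above and 1 below the wild type pair. Pdk1, a kinase that holds pyruvate back from mitochondria, was at 0.07 ± 0.20, adjusted p = 0.812.

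Of the 15 hypoxia genes, 8 were lower in CVP knock-out organoids and 0 were higher, which is 53.3% against the 22.9% of all tested genes that were lower. Their median log2 fold change was -0.71, and every knock-out library was below wild type for 9 of 15 (60.0%, against 30.0% of all tested genes).

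All 3 genes of secreted and surface proteins were lower. Adm, the vessel-widening peptide adrenomedullin, had 13.6 and 20.1 CPM in clone 2.9 and 10.8 and 13.3 CPM in clone 2.10, against 50.7 and 40.6 CPM in wild type CVP. Car9, the membrane carbonic anhydrase that helps cells shed acid, had 85.5 and 75.0 CPM in clone 2.9 and 38.0 and 48.7 CPM in clone 2.10, against 214 and 200.4 CPM in wild type CVP. Vegfa, the vascular growth factor, had 315 and 299 CPM in clone 2.9 and 189 and 219 CPM in clone 2.10, against 695 and 654 CPM in wild type CVP. All 4 knock-out libraries were under both wild type libraries for each of these genes, and clone 2.10 lay below clone 2.9. The log2 fold change was -1.66 ± 0.25, adjusted p = 0.000437, for Adm, -1.75 ± 0.41, adjusted p = 0.00809, for Car9 and -1.40 ± 0.23, adjusted p = 0.00089, for Vegfa.

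Both genes of the collagen prolyl hydroxylases, which stabilise collagen in the endoplasmic reticulum, were lower. P4ha1 had 205 and 216 CPM in clone 2.9 and 175 and 192 CPM in clone 2.10, against 565 and 525 CPM in wild type CVP. The clones were close to each other and far under wild type, and P4ha1 had the lowest p-value of the 34 genes in this line (-1.47 ± 0.10, adjusted p = 9.01e-07, 2.77-fold lower). P4ha2 was at -0.90 ± 0.18, adjusted p = 0.00278.

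Among the genes of stress and growth control, 2 of 3 were lower. Ndrg1, a stress-induced gene of differentiating epithelium, had 774 and 822 CPM in clone 2.9 and 341 and 467 CPM in clone 2.10, against 1359 and 1267 CPM in wild type CVP. Clone 2.10 had the lowest levels and clone 2.9 lay between it and wild type, and the log2 fold change was -1.13 ± 0.37, adjusted p = 0.0326. Mxi1, an antagonist of Myc, was at -0.71 ± 0.08, adjusted p = 3.04e-05, and Ddit4, an inhibitor of mTORC1, at -0.32 ± 0.15, adjusted p = 0.0928, which did not pass.

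Of the oxygen sensing genes, Hif1a itself was lower (-0.87 ± 0.09, adjusted p = 1.65e-05). Its prolyl hydroxylases did not pass, with Egln1 at -0.19 ± 0.21, adjusted p = 0.487 and Egln3 at -0.35 ± 0.39, adjusted p = 0.51. Neither mitochondrial gene passed: Bnip3, a receptor for the removal of mitochondria, was at -0.68 ± 0.28, adjusted p = 0.0786 with all knock-out libraries below wild type, and Higd1a, a partner of the respiratory chain, at 0.14 ± 0.25, adjusted p = 0.677. The nuclear proteins Kdm3a, a histone demethylase (-0.09 ± 0.10, adjusted p = 0.486), and Ankrd37 (-0.13 ± 0.30, adjusted p = 0.756) did not pass either.

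With the duplicates summed so that each culture counted as 1 sample, 5 glycolysis and 5 hypoxia genes remained lower in CVP, among them Slc2a1, Hk2, Gpi1, Adm, P4ha1 and Hif1a. Pgk1 lost its call in 17 of 29 alternatives and Ndrg1 in 9 of 29.

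Marker genes of other cell states moved with these values in CVP. Calls among them are given beside the 22.9% of all tested genes that were lower and the 23.5% that were higher. The summed level of 14 markers of differentiated keratinocytes was 464 to 1369 CPM in the knock-out libraries, against 3205 and 2320.2 CPM in wild type CVP. Of 13 tested, 8 were lower (61.5%) and 2 higher (15.4%). The 14 proliferation genes summed to 214 to 349 CPM in the knock-out libraries, against 373 and 362 CPM in wild type CVP. Of these, 7 were lower (50%) and 0 higher. The 10 immune markers summed to 10.9 to 20.5 CPM in the knock-out libraries, against 104 and 108 CPM in wild type CVP, with Ptprc, Adgre1 and Cd3e at or near 0. Of the 5 immune markers tested, 3 were lower (60%) and 0 higher. The 11 fibroblast markers summed to 265 to 424 CPM in the knock-out libraries, against 66.5 and 63.5 CPM in wild type CVP, mostly from Fbn1 and Vim, while Lum was at 0. Of the 8 fibroblast markers tested, 4 were higher (50%) and 1 lower (12.5%). The 8 epithelial markers summed to 13604 to 15939 CPM in the knock-out libraries, against 11229 and 10798 CPM in wild type CVP, with 2 higher (25%) and 3 lower (37.5%). Their part in the result was not tested.

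**Figure D1:**
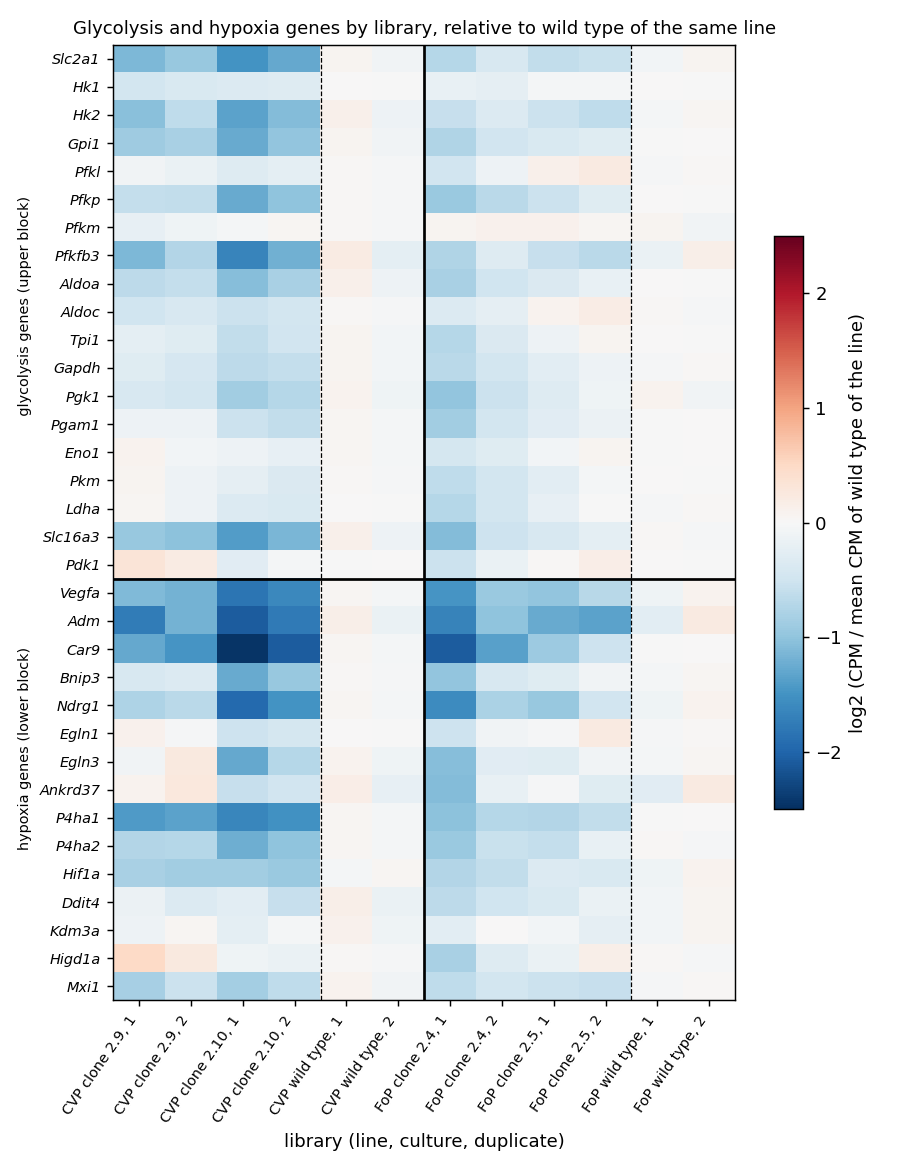
Each row is a gene and each column a library; the colour is log2 of its CPM over the mean CPM of the wild type libraries of the same line, blue below and red above. Slc2a1, Hk2, Gpi1, Vegfa, Adm, P4ha1 and Hif1a are blue in every knock-out library of both lines, and Pfkm and Kdm3a stay near white.

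In FoP organoids, 3 of the 19 glycolysis genes were lower in knock-out and 0 were higher. At 15.8% this is close to the 15.3% of all tested genes that were lower (13.5% were higher), so the count is no result about glycolysis genes. Their median log2 fold change was -0.36, beside 0.01 over all tested genes, and every knock-out library was below both wild type libraries for 12 of 19 genes (63.2%, against 25.8% of all tested genes).

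Slc2a1 had 199.5 and 248 CPM in clone 2.4 and 214 and 222 CPM in clone 2.5, against 309 and 343 CPM in wild type FoP. Hk2 had 114 and 134 CPM in clone 2.4 and 117 and 109.6 CPM in clone 2.5, against 165 and 176 CPM in wild type FoP. Gpi1 had 651 and 785 CPM in clone 2.4 and 837 and 883 CPM in clone 2.5, against 1086 and 1105 CPM in wild type FoP. These are the genes that passed, and in each the 4 knock-out libraries were below the wild type pair and for Gpi1 clone 2.4 was the lower clone. The log2 fold change was -0.56 ± 0.13, adjusted p = 0.00711, for Slc2a1, -0.52 ± 0.16, adjusted p = 0.0354, for Hk2 and -0.47 ± 0.13, adjusted p = 0.0146, for Gpi1.

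A further 2 glycolysis genes missed the threshold narrowly, Pfkp (-0.59 ± 0.20, adjusted p = 0.0504) and Aldoa (-0.45 ± 0.16, adjusted p = 0.0505). Slc16a3 was at -0.53 ± 0.20, adjusted p = 0.0776 and Pfkfb3 at -0.57 ± 0.23, adjusted p = 0.0975. Of the genes between Tpi1 and Pkm none passed, from -0.45 for Pgk1 to -0.17 for Eno1, with Gapdh at -0.36 ± 0.13, adjusted p = 0.0621, Pkm at -0.33 ± 0.14, adjusted p = 0.101, Pgam1 at -0.41 ± 0.20, adjusted p = 0.154 and Tpi1 at -0.25 ± 0.18, adjusted p = 0.331. Hk1 (-0.12 ± 0.06), Pfkl (-0.04 ± 0.16), Pfkm (0.09 ± 0.06), Aldoc (-0.05 ± 0.12) and Pdk1 (-0.10 ± 0.20) lay nearest to 0.

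The abundant enzymes were lower in clone 2.4 than in clone 2.5. In the test between these clones given below, Pkm and Ldha passed and Aldoa did not. Aldoa had 1279.9 and 1589 CPM in clone 2.4 and 1728 and 1954 CPM in clone 2.5, against 2255 and 2211 CPM in wild type FoP. Pkm had 1458 and 1650.0 CPM in clone 2.4 and 1899 and 2212 CPM in clone 2.5, against 2283 and 2264 CPM in wild type FoP. Ldha had 900.3 and 1083 CPM in clone 2.4 and 1291 and 1475 CPM in clone 2.5, against 1450.0 and 1516 CPM in wild type FoP. For Pkm and Ldha clone 2.5 was close to wild type or reached it, and clone 2.4 was below both. Ldha was at -0.32 ± 0.17, adjusted p = 0.194, over the 2 clones together.

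Of the 15 hypoxia genes, 5 were lower in FoP knock-out organoids and 0 were higher (33.3%, against the 15.3% of all tested genes that were lower). Their median log2 fold change was -0.51. Every knock-out library was below wild type for 11 of 15 genes (73.3%, against 25.8% of all tested genes).

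Adm had 16.0 and 25.4 CPM in clone 2.4 and 21.3 and 20.3 CPM in clone 2.5, against 42.4 and 60.0 CPM in wild type FoP. Vegfa had 249 and 364 CPM in clone 2.4 and 348 and 429 CPM in clone 2.5, against 646 and 737 CPM in wild type FoP. P4ha1 had 213 and 264 CPM in clone 2.4 and 261 and 282 CPM in clone 2.5, against 429.8 and 439 CPM in wild type FoP. No knock-out library reached a wild type library in these genes, and clone 2.4 had the lowest library of each. The log2 fold change was -1.30 ± 0.25, adjusted p = 0.00366, for Adm, -0.99 ± 0.23, adjusted p = 0.011, for Vegfa and -0.77 ± 0.10, adjusted p = 0.000162, for P4ha1.

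Hif1a had 299 and 324 CPM in clone 2.4 and 389.5 and 381 CPM in clone 2.5, against 462 and 529.9 CPM in wild type FoP. Mxi1 had 111 and 125 CPM in clone 2.4 and 119 and 116 CPM in clone 2.5, against 169 and 175 CPM in wild type FoP. Clone 2.4 had the lower Hif1a level, whereas both clones had nearly the same level of Mxi1. The log2 fold change was -0.51 ± 0.10, adjusted p = 0.00171, for Hif1a and -0.55 ± 0.08, adjusted p = 0.000485, for Mxi1.

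Car9 (-1.11 ± 0.42, adjusted p = 0.0811) and Ndrg1 (-0.89 ± 0.37, adjusted p = 0.105) had fold changes of this size and did not pass. Ddit4 (-0.42 ± 0.15, adjusted p = 0.0524) and P4ha2 (-0.54 ± 0.18, adjusted p = 0.053) came close to the threshold. Bnip3 was at -0.41 ± 0.29, Egln3 at -0.39 ± 0.39, Ankrd37 at -0.35 ± 0.30, Higd1a at -0.25 ± 0.25, Kdm3a at -0.13 ± 0.10 and Egln1 at -0.08 ± 0.21, with adjusted p from 0.329 to 0.808.

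The FoP counts moved with the processing. The share of all tested genes called in each of these settings is not given, so a shift of these genes cannot be told from one of all genes. The glycolysis count was 13 without clone 2.5 and 1 without clone 2.4, and the hypoxia count was 8 and 5. The glycolysis count was 6 without clone 2.9 or without the first library of clone 2.10, and 5 without clone 2.10. Without wild type library 2 the counts were 0 and 4, without wild type library 1 they were 1 and 5, and without the second library of clone 2.5 they were 7 and 8. With duplicates summed per culture 0 glycolysis genes and 1 hypoxia gene, Mxi1, remained.

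In FoP the summed level of the 14 proliferation genes was 186 to 252 CPM in the knock-out libraries, against 619 and 635 CPM in wild type FoP. All 14 were lower, where 15.3% of all tested genes were lower and 13.5% higher. The differentiated keratinocyte markers summed to 1138 to 2158 CPM in the knock-out libraries, against 2473 and 2436 CPM in wild type FoP. Of 13 tested, 5 were lower (38.5%) and 1 higher (7.69%). The immune markers summed to 38.4 to 67.2 CPM in the knock-out libraries, against 69.7 and 65.7 CPM in wild type FoP. The fibroblast markers summed to 91.8 to 113 CPM in the knock-out libraries, against 98.8 and 77.1 CPM in wild type FoP. The groups overlapped in both sums, yet single markers were called. Of 5 tested immune markers 2 were lower (40%) and 0 higher. Of 8 tested fibroblast markers 2 were higher (25%) and 1 lower (12.5%). Their part in the result was not tested.

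**Figure D2:**
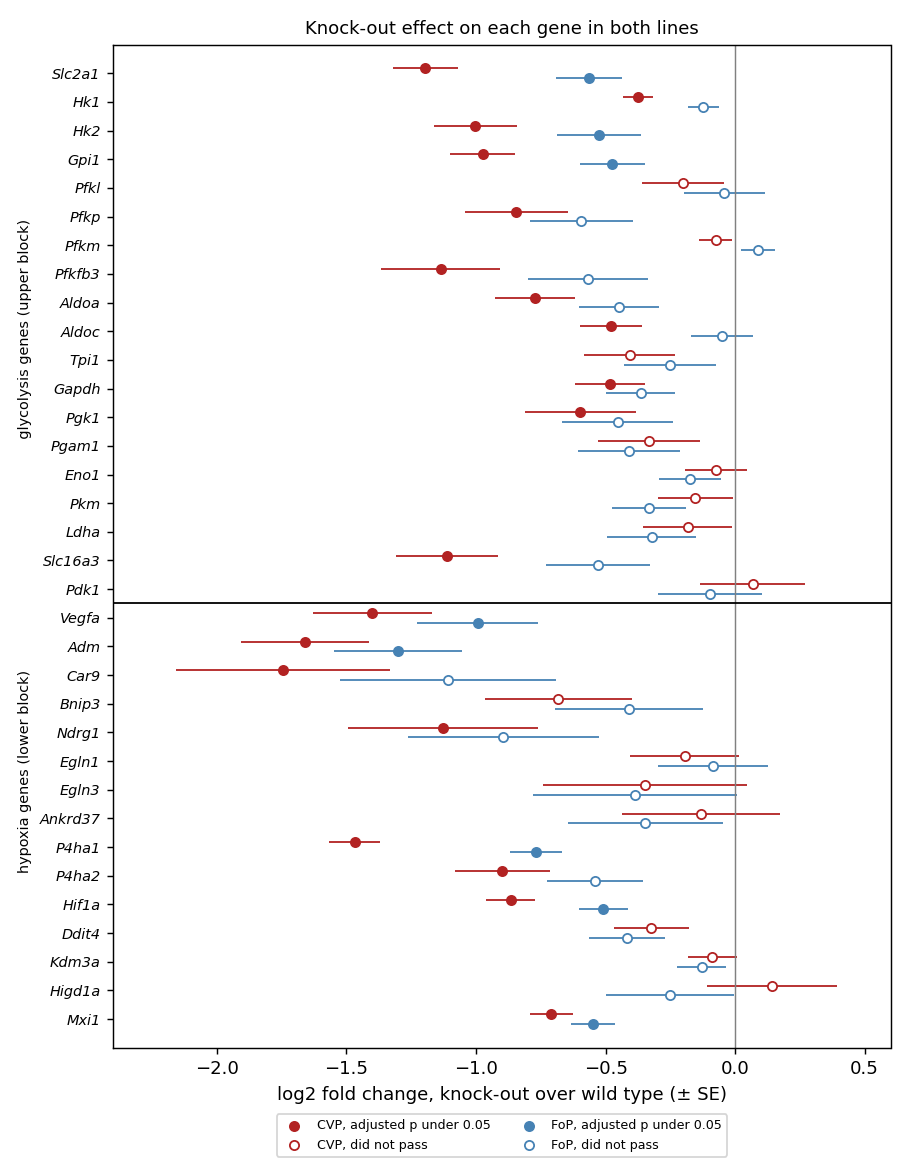
Points are log2 fold changes of knock-out over wild type with their SE, red for CVP and blue for FoP, filled where the adjusted p was under 0.05. Filled points lie left of 0 in every case, from -1.75 for Car9 to -0.38 for Hk1 in CVP and from -1.30 for Adm to -0.47 for Gpi1 in FoP.

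Lower in both lines were 8 of the 34 genes, where 10.1% of all tested genes were lower in both: the glycolysis genes Slc2a1, Hk2 and Gpi1, and the hypoxia genes Vegfa, Adm, P4ha1, Hif1a and Mxi1. The other 11 genes called in CVP did not pass in FoP, and 0 genes were called in FoP alone. A call in 1 line alone does not show that the lines differ, which was tested as the difference of the 2 knock-out effects, FoP minus CVP. It passed for 1 of 19 glycolysis genes (5.26%) and 1 of 15 hypoxia genes (6.67%), where 15.8% of all tested genes passed, 7.28% with a positive and 8.49% with a negative difference. The difference was 0.70 ± 0.14, adjusted p = 0.00781, for P4ha1 and 0.63 ± 0.18, adjusted p = 0.0404, for Slc2a1. Both genes were thus lower by less in FoP than in CVP. P4ha1 lies at chr10:59323296-59373304 and Slc2a1 at chr4:119108711-119137983, both on the plus strand (GRCm38, GENCODE M21). The SDs given next are over n = 4 knock-out libraries, which are duplicates of 2 clones, or n = 2 wild type duplicates. They are thus no spread between independent clones. For P4ha1 the knock-out mean was 255 ± 29.6 CPM in FoP, against 434 ± 6.49 CPM in wild type FoP, and 197 ± 17.9 CPM in CVP, against 545 ± 28.2 CPM in wild type CVP. For Slc2a1 it was 221 ± 20.3 CPM in FoP, against 326 ± 23.7 CPM in wild type FoP, and 165 ± 25.9 CPM in CVP, against 377 ± 28.9 CPM in wild type CVP. The Slc2a1 difference lost its call in 16 of 28 alternatives, including 9 of the 12 in which 1 library was left out.

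**Figure D3:**
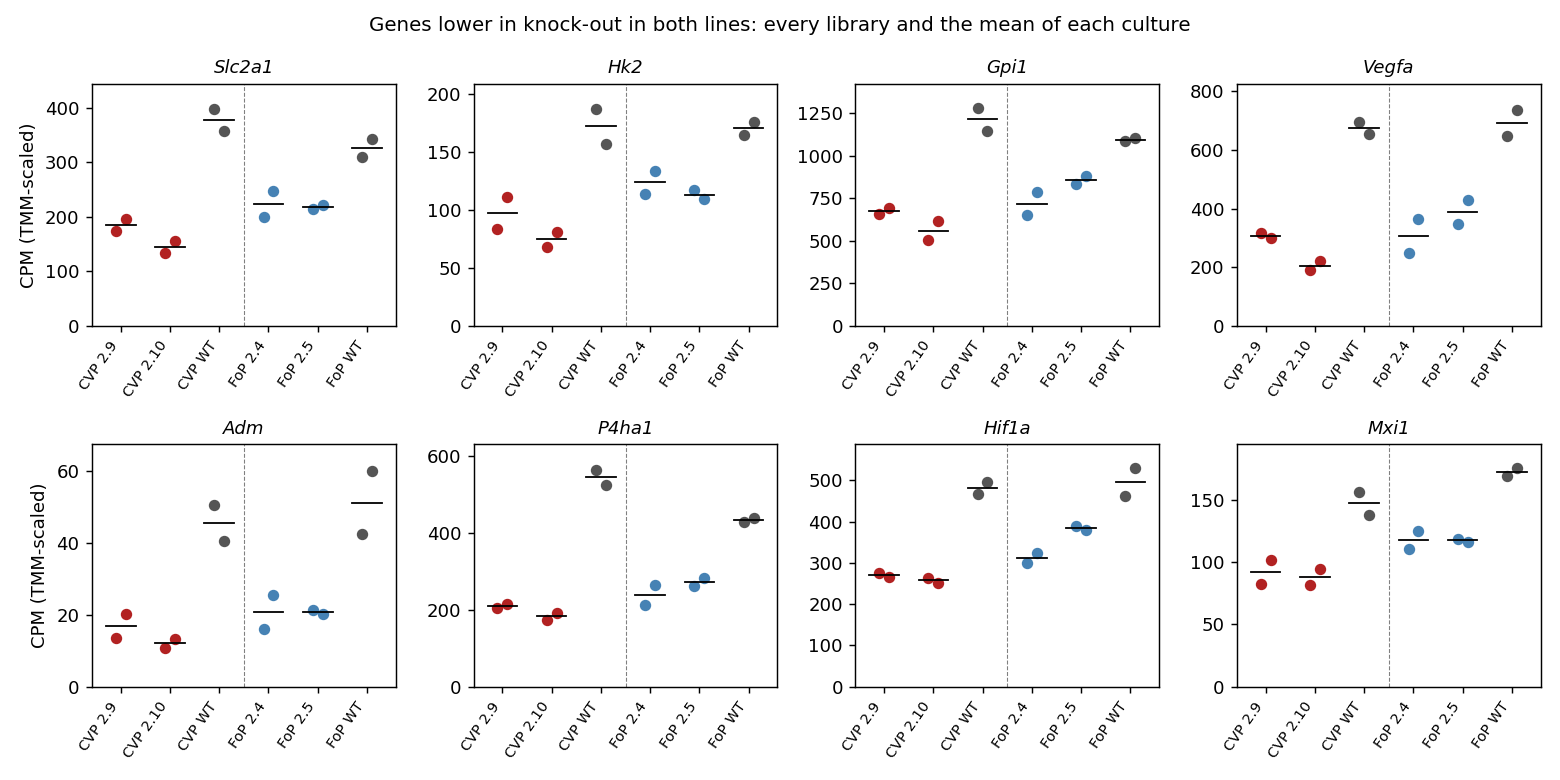
Each panel is a gene lower in knock-out in both lines, each point a library and each line the mean of a culture, on a CPM axis from 0; knock-out clones are red (CVP) or blue (FoP) and wild type is grey. In all 8 panels the grey points lie above the coloured points of their line.

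Wild type FoP and wild type CVP organoids did not differ past the threshold in any of the 34 genes in the edgeR fit of 4 groups, where 6.68% of all tested genes passed. At an unadjusted p under 0.05, 2 glycolysis and 2 hypoxia genes differed, where 22.6% of all tested genes did. The DESeq2 Wald test called 1 and 0, and edgeR with 6 cultures as groups called 2 and 1. The median log2 difference, FoP over CVP, was -0.07 over the glycolysis genes, from -0.38 to 0.18, and 0.05 over the hypoxia genes, from -0.36 to 0.48. With 2 libraries a group, a miss does not show that the lines had equal levels.

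Promoters were searched because HIF-1 is known to bind the core ACGTG, and less often GCGTG, of hypoxia response elements. Promoter windows ran from 250 bases before to 50 bases after each start in RefSeq (GRCm38.p6), the most upstream start was used for each gene, and 33 of the 34 genes had a window. ACGTG, searched on both strands, stood in 60.6% of these windows, in 24.9% of the 11619 windows of tested genes and in 19.6% of all 27025 windows. GCGTG stood in 54.5% of the windows, against 50.1% of those of tested genes. ACGTG overlaps the E-box CACGTG, which many other factors bind and which was in 12.1% of the windows and in 9.67% of those of tested genes. Within the 33 genes, ACGTG was in 11 of the 18 windows of genes lower in CVP (61.1%) and in 9 of the 15 windows of genes not called (60.0%). Of the 8 genes lower in both lines 4 had it, namely Slc2a1, Hk2, P4ha1 and Hif1a, and the most upstream windows of Gpi1, Vegfa, Adm and Mxi1 had no such letters in them. These shares depend on the start used. With every listed window of a gene searched, 15 of the 18 genes lower in CVP (83.3%, with a mean of 1.44 windows per gene) and 10 of the 15 not called (66.7%, 1.67 windows) held ACGTG in at least 1 window, against 28.2% of tested genes (1.28 windows). Of the 8 genes lower in both lines 6 then held it, with Vegfa and Mxi1 added. Shown here are the 250 bases before the start of Slc2a1, Hk2, P4ha1, Hif1a and Ldha, the last of which had the most matches (5) and was not called, each 5′ to 3′ on the gene's strand with ACGTG or its complement CACGT in capitals. The regions are chr4:119108495-119108744, plus strand for Slc2a1, chr6:82774455-82774704, minus strand for Hk2, chr10:59323046-59323295, plus strand for P4ha1, chr12:73907617-73907866, plus strand for Hif1a and chr7:46845554-46845803, plus strand for Ldha.
Slc2a1: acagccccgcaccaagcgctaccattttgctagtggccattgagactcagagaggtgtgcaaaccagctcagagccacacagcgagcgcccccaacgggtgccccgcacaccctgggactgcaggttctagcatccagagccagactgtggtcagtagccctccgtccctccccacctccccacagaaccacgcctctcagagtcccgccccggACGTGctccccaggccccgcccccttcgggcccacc
Hk2: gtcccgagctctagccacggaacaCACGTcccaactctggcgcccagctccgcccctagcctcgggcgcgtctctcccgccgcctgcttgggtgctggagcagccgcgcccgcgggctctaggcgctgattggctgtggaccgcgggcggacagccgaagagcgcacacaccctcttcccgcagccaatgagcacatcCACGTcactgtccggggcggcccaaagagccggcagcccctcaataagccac
P4ha1: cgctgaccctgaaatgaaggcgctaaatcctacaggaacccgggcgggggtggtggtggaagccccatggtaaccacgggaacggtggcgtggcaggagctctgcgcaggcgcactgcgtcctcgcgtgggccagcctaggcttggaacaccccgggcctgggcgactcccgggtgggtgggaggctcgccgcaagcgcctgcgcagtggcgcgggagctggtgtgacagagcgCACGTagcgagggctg
Hif1a: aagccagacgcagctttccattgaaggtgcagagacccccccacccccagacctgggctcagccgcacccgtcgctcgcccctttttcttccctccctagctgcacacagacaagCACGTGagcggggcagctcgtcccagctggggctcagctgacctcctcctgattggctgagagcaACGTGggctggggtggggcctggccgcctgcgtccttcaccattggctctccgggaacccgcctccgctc
Ldha: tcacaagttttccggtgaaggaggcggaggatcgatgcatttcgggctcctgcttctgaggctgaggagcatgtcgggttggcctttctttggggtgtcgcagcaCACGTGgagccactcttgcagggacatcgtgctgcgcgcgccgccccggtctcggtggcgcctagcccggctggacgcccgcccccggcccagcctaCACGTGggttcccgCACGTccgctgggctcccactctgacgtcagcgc
Slc2a1 and P4ha1 thus hold 1 match each, Hk2 2 and Hif1a 3, 2 of them on opposite strands of 1 CACGTG. Ldha holds 5, of which 4 belong to 2 copies of CACGTG. A match is a description of these letters and not a binding site, and whether the share differed between called and other genes was not tested.

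The clones of a line were compared in a fit with the 6 cultures as groups, in which the spread is that of duplicates alone. Against wild type CVP, clone 2.10 had 16 glycolysis (84.2%) and 12 hypoxia genes (80%) lower and clone 2.9 had 12 (63.2%) and 7 (46.7%). Of all tested genes, 24.4% were lower and 25.2% higher in clone 2.10, and 23.6% and 23.4% in clone 2.9. Against wild type FoP, clone 2.4 had 16 (84.2%) and 11 (73.3%) lower and clone 2.5 had 4 (21.1%) and 5 (33.3%). Of all tested genes, 17.3% were lower and 15.1% higher in clone 2.4, and 18.1% and 16.3% in clone 2.5. For clone 2.5 the glycolysis count is near that share and is no result about glycolysis genes. None of the 34 genes was higher than wild type in a clone by this test.

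Compared with clone 2.9, clone 2.10 was lower in 3 glycolysis genes and higher in 0 (2.54% of all tested genes were lower and 2.89% higher). They were Pfkp (-0.52 ± 0.10, adjusted p = 0.00878), Pgam1 (-0.44 ± 0.11, adjusted p = 0.0367) and Ldha (-0.33 ± 0.09, adjusted p = 0.0462). Among the hypoxia genes Egln1 was lower (-0.52 ± 0.13, adjusted p = 0.0494). Of the 3 CVP cultures clone 2.10 had the lowest mean level of 17 of the 19 glycolysis genes and of all 15 hypoxia genes. Wild type CVP had the highest level of 17 and 11. How often other tested genes had the same order was not counted, so it may not be particular to these genes.

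Compared with clone 2.4, clone 2.5 was higher in 10 glycolysis genes and lower in 0 (3.53% of all tested genes were higher and 3.72% lower). Of the 6 genes from Tpi1 to Pkm 5 were among them, with Tpi1 at 0.50 ± 0.10, adjusted p = 0.00939, Pgam1 at 0.44 ± 0.11, adjusted p = 0.0317, Pkm at 0.40 ± 0.09, adjusted p = 0.0138, Gapdh at 0.38 ± 0.08, adjusted p = 0.0107 and Eno1 at 0.37 ± 0.07, adjusted p = 0.00704. Also higher were Ldha (0.48 ± 0.09, adjusted p = 0.0045), Pfkl (0.48 ± 0.09, adjusted p = 0.00641), Pdk1 (0.44 ± 0.11), Aldoc (0.42 ± 0.06) and Pfkp (0.38 ± 0.10). Of the hypoxia genes 1 was higher, Hif1a (0.30 ± 0.07, adjusted p = 0.014). Clone 2.4 had the lowest mean of the 3 FoP cultures in 15 glycolysis and 13 hypoxia genes. Here too the order of other tested genes was not counted. Of the 8 genes lower in both lines, Hif1a passed between these clones, and Slc2a1, Hk2, Gpi1, Vegfa, Adm, P4ha1 and Mxi1 did not.

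The clone with the lower values was thus clone 2.10 in CVP, which had 487 and 547 Foxe1 counts and was the clone of its line with less Foxe1 transcript, and clone 2.4 in FoP, which had 1471 and 1292 and was the clone of its line with more. Among the differentiated keratinocyte markers, clone 2.10 summed to 464 and 597 CPM and clone 2.9 to 1202 and 1369 CPM, and clone 2.5 to 1641 and 2158 CPM and clone 2.4 to 1138 and 1612 CPM, so that in each line the clone lower in these sums was also lower in glycolysis genes. The part of these differences in the result was not tested. These counts rest on few libraries, and those below are given without the share of all tested genes called in the same setting. Between the FoP clones, 1 glycolysis and 0 hypoxia genes passed without the second library of clone 2.5, 2 and 0 without the first of clone 2.4, and 13 and 7 without the second of clone 2.4. Between the CVP clones, 0 or 1 glycolysis and 0 hypoxia genes passed without either library of clone 2.9, the first of clone 2.10 or any wild type library, 3 and 0 without the second of clone 2.10, and 5 and 7 without either library of clone 2.4.

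As a share of all counts, the 19 glycolysis genes took 1.14 and 1.05% in clone 2.9 and 0.887 and 0.913% in clone 2.10, against 1.32 and 1.24% in wild type CVP. In the other line they took 0.792 and 0.937% in clone 2.4 and 1.03 and 1.15% in clone 2.5, against 1.27 and 1.27% in wild type FoP. The groups did not overlap in either line, and the means of knock-out libraries were 0.780 times wild type in CVP and 0.772 times in FoP. The 15 hypoxia genes took 0.396 and 0.405% in clone 2.9 and 0.248 and 0.278% in clone 2.10, against 0.565 and 0.533% in wild type CVP. In FoP they took 0.283 and 0.399% in clone 2.4 and 0.392 and 0.466% in clone 2.5, against 0.58 and 0.628% in wild type FoP. The mean hypoxia share of knock-out libraries was 0.604 times wild type in CVP and 0.638 times in FoP, without overlap. An exact two-sided permutation test of 4 against 2 libraries cannot give a p below 0.133, which is the p of each of these comparisons and of those of shares below that did not overlap, so none can pass.

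The mix of genes within families was measured as a share of the family's CPM per kb. The size of a share depends on the joined exon lengths used, which were 13.4 kb for Pfkp, 6.675 kb for Pfkl and 3.34 kb for Pfkm. The shares therefore do not show which form of a family is the main one. Hk2 made up 32.8 and 38.0% in clone 2.9 and 26.7 and 30.3% in clone 2.10, against 44.3 and 40.1% in wild type CVP, of the sum of Hk1 and Hk2. In FoP the Hk2 share was 38.8 and 43.2% in clone 2.4 and 37.1 and 35.5% in clone 2.5, against 44.5 and 46.3% in wild type FoP. Knock-out libraries thus held less of the inducible form in each line without overlap, with clone 2.10 the lowest in CVP and clone 2.5 in FoP. Pfkp made up 16.4 and 16.5% in clone 2.9 and 11.9 and 13.1% in clone 2.10, against 21.4 and 21.5% in wild type CVP, of the phosphofructokinase sum of Pfkl, Pfkp and Pfkm. In FoP it made up 16.7 and 16.7% in clone 2.4 and 16.3 and 18.1% in clone 2.5, against 23.7 and 23.4% in wild type FoP. The groups were apart in both lines, with the wild type duplicates close to each other. P4ha1 made up 62.5 to 66.6% of the sum of P4ha1 and P4ha2 in CVP knock-out, against 73.0 and 72.7% in wild type CVP, and 60.6 to 65.8% in FoP knock-out, against 66.8 and 68.1% in wild type FoP. The Aldoc share lay on the other side of wild type: it was 5.72 to 7.25% of the aldolase sum in CVP knock-out, against 4.86 and 5.53% in wild type CVP, and 5.18 to 5.89% in FoP knock-out, against 4.38 and 4.29% in wild type FoP. The Egln3 share of Egln1 and Egln3 overlapped between groups in CVP, with 79.6 to 88.8% in knock-out against 87.5 and 86.0% in wild type. In FoP it did not overlap, with 84.7 to 87.7% in knock-out against 89.0 and 89.1% in wild type.

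**Figure D4:**
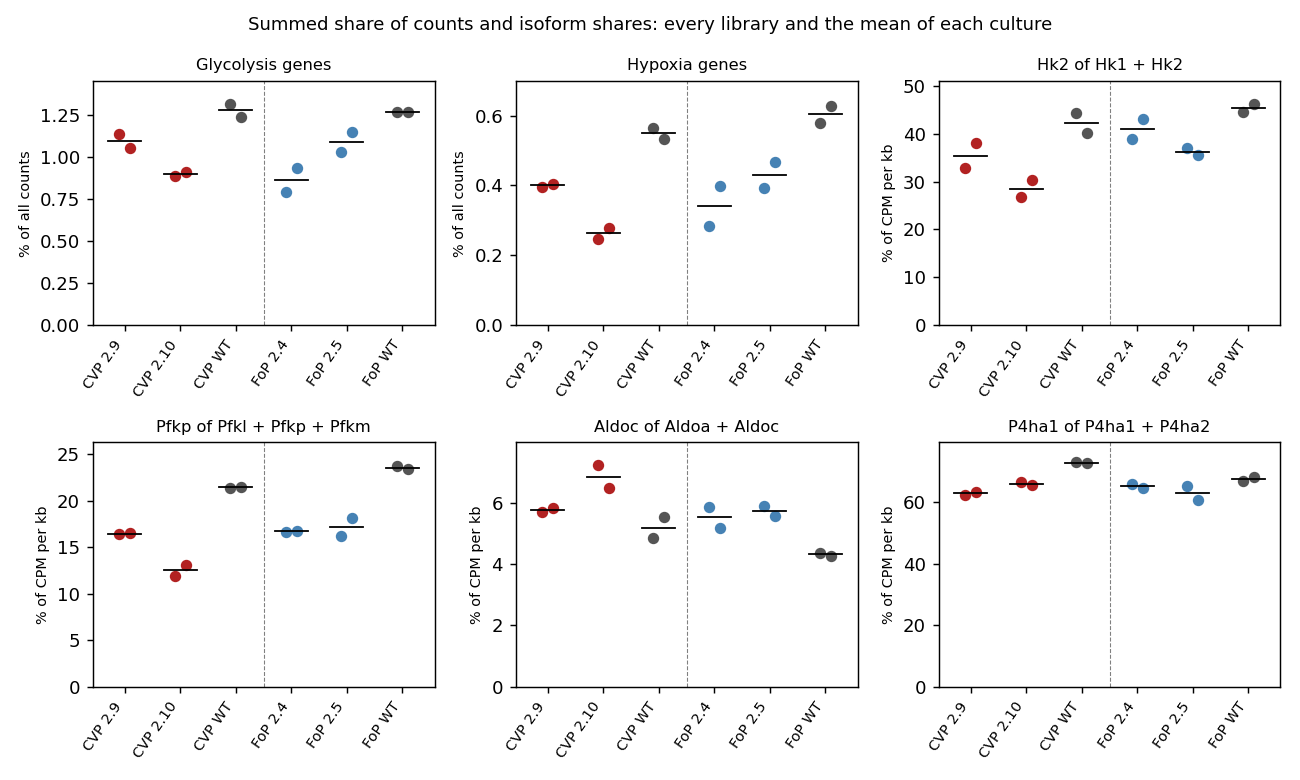
The upper left and upper middle panels show the share of all counts of the 19 glycolysis and 15 hypoxia genes, and the others the share of a gene within its family on the CPM per kb scale, per library (points) and culture mean (lines), knock-out red or blue and wild type grey, axes from 0. The Pfkp share is 11.9 to 18.1% in the 8 knock-out libraries and 21.4 to 23.7% in the 4 wild type libraries, while the Aldoc share is higher in knock-out of each line.

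Other genes of the same pathways were counted beside the shares of all tested genes, of which 23.5% were higher and 22.9% lower in CVP and 13.5% higher and 15.3% lower in FoP. Of 17 genes of the HIF system itself, 4 were higher (23.5%) and 5 lower (29.4%) in CVP and 1 was higher (5.88%) and 3 lower (17.6%) in FoP, which is near those shares for lower genes in both lines. In CVP, the HIF-2 alpha subunit Epas1 was at -0.65 ± 0.16, adjusted p = 0.00809, the common partner Arnt at -0.44 ± 0.05, adjusted p = 3.01e-05, and the ubiquitin ligase Siah2, which targets prolyl hydroxylases, at -0.39 ± 0.10, adjusted p = 0.00599. The paralogue Arnt2 was higher in both lines (2.55 ± 0.62, adjusted p = 0.0044, in CVP and 2.26 ± 0.60, adjusted p = 0.0128, in FoP) from low levels, with 44 to 108 counts in CVP knock-out against 12 in each wild type CVP library, and 34 to 104 in FoP knock-out against 10 and 20 in wild type FoP. In FoP, Siah2 (-0.36 ± 0.10, adjusted p = 0.0146), Cul2, the scaffold of the ligase that marks Hif1a (-0.32 ± 0.06, adjusted p = 0.0011), and the asparagine hydroxylase Hif1an (-0.19 ± 0.06, adjusted p = 0.0268) were lower.

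Of 45 tested genes known as HIF targets outside the 34, 9 were higher (20%) and 19 lower (42.2%) in CVP, and 5 were higher (11.1%) and 11 lower (24.4%) in FoP, beside 22.9% and 15.3% of all tested genes that were lower. Their median log2 fold change was -0.23 in CVP and -0.19 in FoP. The largest changes among called genes in CVP were the transferrin receptor Tfrc (2.80 ± 0.23, adjusted p = 1.07e-05), the vascular growth factor Pgf (-2.12 ± 0.20, adjusted p = 1.91e-05), the oxidase of protein folding Ero1l (-2.12 ± 0.37, adjusted p = 0.00146) and the glycogen-targeting subunit Ppp1r3c (2.06 ± 0.29, adjusted p = 0.000101). Tfrc had a mean of 105 ± 18.5 CPM in knock-out and 15.0 ± 2.46 CPM in wild type CVP, and Ero1l had 305 ± 127 and 1328 ± 103 CPM (SD, n = 4 libraries of 2 clones and 2 wild type duplicates). Among called genes in FoP they were Ppp1r3c (1.75 ± 0.30, adjusted p = 0.000942), the mitochondrial adenylate kinase Ak4 (-1.12 ± 0.17, adjusted p = 0.00082), Tfrc (0.98 ± 0.21, adjusted p = 0.00603) and the collagen cross-linking oxidase Lox (-0.96 ± 0.25, adjusted p = 0.0175).

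Of 26 tested genes of other isoforms and branches of glycolysis, 4 were higher (15.4%) and 11 lower (42.3%) in CVP and 0 were higher and 4 lower (15.4%) in FoP. In CVP the muscle fructose bisphosphatase Fbp2 (3.47 ± 0.49, adjusted p = 9.7e-05) and the cytosolic glycerol phosphate dehydrogenase Gpd1 (1.89 ± 0.28, adjusted p = 0.000132) were higher, both at low levels, with at most 129 and 913 counts in a CVP library. Of the 11 lower genes, the neuronal enolase Eno2 (-1.02 ± 0.28, adjusted p = 0.00989) and the transporter Slc16a7 (-1.17 ± 0.38, adjusted p = 0.024) were chosen as examples after their values were seen. In FoP the lactate transporters Slc16a7 (-1.75 ± 0.41, adjusted p = 0.00622) and Slc16a1 (-0.60 ± 0.16, adjusted p = 0.0156), the phosphoglucomutase Pgm2 (-0.35 ± 0.06, adjusted p = 0.00075) and the mitochondrial Gpd2 (-0.24 ± 0.06, adjusted p = 0.00696) were lower. Of the 8 genes of the pentose phosphate pathway, which branches off glucose phosphate, 3 were lower (37.5%) and 0 higher in CVP and 6 were lower (75%) and 1 higher in FoP. G6pdx, the entry enzyme of that pathway, was at -0.26 ± 0.05, adjusted p = 0.00141, in CVP and at -0.31 ± 0.05, adjusted p = 0.000932, in FoP.

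Reads from near-identical copies can be split between loci, and glycolysis genes have many. The named copies measured in the table, 11 of 15 listed, held few counts. These were at most 100 for Eno1b and at most 40 for the others in a library, next to at least 3314 for any of the glycolysis genes but Pfkfb3 (1317). Low counts at the copies do not show whether reads shared by several loci were left out of the counts. Exons of Gpi1 and Gm26762 overlap by 741 bases and those of Pfkp and Pitrm1 by 748 bases on opposite strands, and those of Pkm and Gm49759 by 767 bases on the same strand. The library kit marks strand, but whether counting used strand is not stated, so reads in these overlaps cannot be told apart.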

How the data were processed

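The deposited table holds raw counts of 55367 genes in 12 columns, made by the authors from stranded poly(A) libraries (TruSeq) with STAR, featureCounts and hg38 per the submitters' processing notes, with no versions given; the symbols are those of mouse genes. Totals were 59.3 M to 73.6 M counts. Low counts of 2 (20289 values) and 4 (10030) were more frequent than 1 (20007) and 3 (6626), so halved counts were tried. Counting error is small beside the spread of duplicates, which was 8.18 to 40.8 times sampling noise (chi-square per degree of freedom).

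Columns were matched to samples by title. Genes were filtered with filterByExpr over 4 arms (line by label), scaled by TMM and fitted with edgeR 4.0.16 (R 4.3.3; robust quasi-likelihood), Benjamini-Hochberg adjusted over 17076 genes at 0.05. SE is the fold change over the root of F, an approximation. Clones came from a fit of 6 cultures. Levels per kb used the joined length of all exons of a gene in GENCODE M21, and overlaps of exons the same annotation. Aldoa had 2 entries there, of which the first was used. The 34 genes, the other lists and the tests were chosen with earlier results of these data known. Values in every library are given, per line and group, for the up to 5 called genes with the largest fold change, for genes called in the difference and for the 3 with the highest level per kb; of other lists, up to 4 called genes could be named. In a check on simulated data, 59 and 55 of 100 genes changed 1.5-fold were recovered in CVP and FoP, and 84 and 89 of 100 changed 2-fold, with 12 and 7 false calls among 16876 unchanged genes. Each simulated library was drawn independently, with no shift shared by the duplicates of a clone. The check therefore does not give the rate of false calls for the real libraries. Alternatives covered scaling, filter, DESeq2 1.42.0, limma 3.58.1 voom, summed duplicates, the replicate block, clones and libraries left out, a test against a 1.5-fold change, and, chosen after seeing the data, 1 line per fit and every listed promoter window.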

Additional observations from a re-analysis of the deposited data

Results flagged for a closer look

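The knock-out effect differed between the lines by a test of the difference itself for 2 of the 34 genes. These are 5.26% of the glycolysis and 6.67% of the hypoxia genes. Of all tested genes 15.8% passed, 7.28% with a positive difference as here, so the count is no result about these genes as a set. For P4ha1 the difference, FoP minus CVP, was 0.7003 on the log2 scale (edgeR adjusted p = 0.00781), and all 4 knock-out libraries were below wild type in each line. It kept its call in 26 of 28 alternatives, with values from 0.59 to 0.80, and lost it with summed duplicates (adjusted p = 0.221) and against a 1.5-fold change (adjusted p = 0.792). For Slc2a1 the difference was 0.6327 (adjusted p = 0.0404), also with all 4 knock-out libraries below wild type in each line. It kept its call in 12 of 28 alternatives, with values from 0.47 to 0.82 and adjusted p from 0.00344 to 1. No sample stood apart from the other 3 of its group in the 68 knock-out groups of 4 checked, 1 per gene and line. Each group holds the duplicates of 2 clones, and where the clones differ a single sample can hardly be flagged. The groups also share their libraries, so the lack of flags says little about single samples.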

How the results depend on the processing

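Counts are given as glycolysis and hypoxia genes called, and every call between knock-out and wild type was lower under every alternative. Here and above, counts under alternatives stand without the share of all tested genes called in that setting. They therefore do not tell a change in these genes from a change in calls over all genes. Over all genes and alternatives, 908 CVP and 866 FoP values kept sign and side of the threshold, 48 and 32 lost a call, 18 and 77 gained one and 12 and 11 turned sign. In CVP (11 and 8), the counts were 5 and 5 with summed duplicates and 4 and 4 against a 1.5-fold change. In FoP (3 and 5), the glycolysis count was 7 with library totals, 1 with no filter and without clone 2.4, 5 with a filter at 1 CPM, without clone 2.10 and with 1 line per fit, and 6 without clone 2.9. Both FoP counts were 8 with DESeq2; they were 14 and 9 with 6 cultures as groups, 13 and 8 without clone 2.5, 0 and 1 with summed duplicates and 0 and 0 against a 1.5-fold change; the glycolysis count was 2 with voom. For the difference between lines (1 and 1), the glycolysis count was 2 with upper quartile scaling, a 1 CPM filter and without clone 2.10, 3 without clone 2.9, and 0 with library totals, voom and without clone 2.5; it was 3 and 2 with DESeq2, 4 and 2 with 6 cultures, 5 and 2 without clone 2.4, and 0 and 0 with summed duplicates and against a 1.5-fold change. Between wild types (0 and 0), 2 and 1 passed with 6 cultures and without clone 2.4, 2 and 0 without clone 2.5, and 1 and 0 with DESeq2. Between the CVP clones (3 and 1) the counts were 10 and 4 with no filter, 9 and 8 with DESeq2 and 2 and 1 with a 1 CPM filter; between the FoP clones (10 and 1) the hypoxia count was 4 with no filter and 5 with DESeq2. Leaving out 1 library gave 8 to 12 and 7 to 9 in CVP, 0 to 7 and 4 to 8 in FoP, 0 to 4 and 1 to 2 for the difference, 0 to 0 and 0 to 1 between wild types, 0 to 5 and 0 to 7 between CVP clones, and 1 to 13 and 0 to 7 between FoP clones. Same-numbered replicates deviated together in 1 of 15 pairs of groups, so numbers do not pair the samples; with a replicate block the counts were 10 and 8 in CVP, 3 and 5 in FoP, 1 and 1 for the difference and 0 and 0 between wild types.

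Signs turned for some genes that were not called. In CVP, library totals gave 0.017 for Pfkm, 0.019 for Eno1 and 0.0056 for Kdm3a (this scaling put the median of all genes at 0.12 in CVP and at -0.13 for the difference, against 0.03 and -0.02 with TMM); without clone 2.10, Eno1 was 0.0085, Egln1 0.042, Egln3 0.086 and Ankrd37 0.18; without clone 2.9, Pdk1 was -0.17 and Higd1a -0.14. Leaving out 1 library gave -0.0298 to 0.17 for Pdk1, -0.30 to 0.066 for Ankrd37 and -0.19 to 0.023 for Kdm3a. In FoP without clone 2.4, Pfkl was 0.19, Aldoc 0.15, Eno1 0.0053, Pdk1 0.11, Egln1 0.10 and Higd1a 0.0023; leaving out 1 library gave -0.14 to 0.087 for Pfkl, -0.14 to 0.038 for Aldoc, -0.20 to 0.030 for Pdk1 and -0.20 to 0.039 for Egln1. Hk2 in FoP lost its call in 12 of 29 alternatives. The cause was not tested; summed duplicates leave fewer samples.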

Other observations

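Pyruvate leaves glycolysis for the mitochondrial citrate cycle, and 28 genes of that route were tested beside the 34. In CVP 8 were higher (28.6%) and 9 lower (32.1%), beside 23.5% and 22.9% of all tested genes, and in FoP 2 were higher (7.14%) and 6 lower (21.4%), beside 13.5% and 15.3%. The citrate synthase Cs, which starts the cycle, was lower in CVP (-0.55 ± 0.05, adjusted p = 5.94e-06) and in FoP (-0.39 ± 0.05, adjusted p = 0.000168), and so was the isocitrate dehydrogenase subunit Idh3b (-0.49 ± 0.05, adjusted p = 1.13e-05, and -0.26 ± 0.05, adjusted p = 0.0022). Pdk4, which holds pyruvate back from mitochondria, was lower in CVP (-3.32 ± 0.57, adjusted p = 0.000559), and so was Pdp1, which has the opposite effect (-0.61 ± 0.10, adjusted p = 0.000263). In FoP the subunit Idh3g (0.31 ± 0.07, adjusted p = 0.00437) and the pyruvate carrier subunit Mpc2 (0.27 ± 0.07, adjusted p = 0.00766) were higher. All adjusted p-values are from edgeR.

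Of 29 tested regulators of glucose use, 11 were higher (37.9%) and 9 lower (31%) in CVP and 4 were higher (13.8%) and 6 lower (20.7%) in FoP, beside the same shares of all tested genes. Txnip, which restrains glucose uptake, was lower in CVP (-1.47 ± 0.35, adjusted p = 0.00723), as were the Myc relative Mycl (-0.99 ± 0.08, adjusted p = 1.67e-06) and the coactivator Ppargc1b (-0.66 ± 0.18, adjusted p = 0.0104), whereas its relative Ppargc1a, a coactivator of mitochondrial genes, was higher (0.73 ± 0.26, adjusted p = 0.035). In FoP the Txnip relative Arrdc4 was higher (0.70 ± 0.18, adjusted p = 0.0158), and the growth regulator Myc (-0.39 ± 0.10, adjusted p = 0.0136), the stress protein Sesn2 (-0.38 ± 0.11, adjusted p = 0.0165) and the mTORC2 subunit Rictor (-0.37 ± 0.07, adjusted p = 0.00138) were lower.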
